A study of Mus musculus with 12 samples.

Results

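The 36 aminoacyl-tRNA synthetase genes listed here comprised 20 genes of cytosolic enzymes and 16 genes of mitochondrial enzymes, whose symbols end in 2. They were taken by symbol from a table of 24562 genes counted in mouse oocytes. All 36 were in the table, and all 36 passed the filter on low counts that left 13943 genes tested. RNA-Seq was performed on 12 pools of CD-1 mouse oocytes, each of 18 to 45 oocytes and 3 to a cohort (n = 3). The cohorts were postnatal day (PND) 13, PND 16 small (lighter mice), PND 16 large (heavier mice) and PND 40, and the PND 16 cohorts share an age and differ in body weight. In all cohorts, the oocytes came from antral follicles of ovaries that had received no gonadotropin, were stripped of cumulus cells by pipetting, and were kept in meiotic arrest with milrinone, an inhibitor of phosphodiesterase 3. The study treated PND 16 large and PND 40 oocytes as meiotically competent, that is, able to reach metaphase II in culture, and PND 13 and PND 16 small oocytes as non-competent. Competence was assigned by cohort and not measured in the pools sequenced.

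Aminoacyl-tRNA synthetases join each amino acid to its tRNA, the step that fixes how codons are read. Most animal cells use separate nuclear genes for the enzymes of the cytosol and of the mitochondria. Glycine and lysine are exceptions, since Gars and Kars each encode the enzyme of both compartments. Cytosolic phenylalanyl-tRNA synthetase is built from the products of Farsa and Farsb, whereas the mitochondrial enzyme is the product of Fars2 alone. Eprs encodes the cytosolic enzyme for both glutamic acid and proline. A number of the cytosolic enzymes are held in a multi-synthetase complex with scaffold proteins, and many of their genes are described as targets of ATF4, the transcription factor that is translated when eIF2alpha is phosphorylated. A growing oocyte accumulates protein, ribosomes and mitochondria for the early embryo.

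Promoter sequences from RefSeq (GRCm38.p6, 250 bases before to 50 after the start of the gene) were matched by gene identifier for 27 of the 36 genes, 13 cytosolic and 14 mitochondrial. They were searched on both strands for TGATGNAA, the composite element through which ATF4 is known to bind. It was found in 5 of the 13 cytosolic genes and in 0 of the 14 mitochondrial genes, counting any promoter of a gene. Of all 27025 genes with a promoter, 4.51% held it, and of all 32851 promoters of this length, 3.97%. Stretches around the matches are shown because these genes include both evenly expressed enzymes (Gars, Iars, Aars) and the cytosolic gene with the largest change (Yars). Each is given 5′ to 3′ on the strand of the gene, with the match in capitals and ending no more than 30 bases after the start unless the match does. In all but Yars the element lies on the opposite strand.
Aars, upstream match: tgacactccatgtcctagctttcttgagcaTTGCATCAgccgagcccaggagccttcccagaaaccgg
Aars, downstream match: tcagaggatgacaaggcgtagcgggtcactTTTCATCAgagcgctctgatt
Gars: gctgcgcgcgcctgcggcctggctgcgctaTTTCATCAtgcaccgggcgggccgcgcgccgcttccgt
Iars: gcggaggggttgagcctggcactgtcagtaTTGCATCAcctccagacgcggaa
Tars: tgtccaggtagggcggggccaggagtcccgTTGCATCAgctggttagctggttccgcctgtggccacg
Yars: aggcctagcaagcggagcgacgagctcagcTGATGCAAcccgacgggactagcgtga

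These stretches lie at chr8:111033700-111033767 and chr8:111033821-111033871 for Aars, chr6:55037941-55038008 for Gars, chr13:49682107-49682159 for Iars, chr15:11399636-11399703 for Tars (minus strand) and chr4:129189876-129189932 for Yars. A second search, again on both strands, was for GCGCN followed directly by TGCGC, a core of the site of NRF1, a regulator of many nuclear genes of mitochondrial proteins. It was found in 3 of the 13 cytosolic genes (Farsb, Kars and Tars) and in 2 of the 14 mitochondrial genes (Iars2 and Mars2). Of all genes with a promoter, 5.19% held it, and of all promoters, 4.60%. Iars2 is shown because it had the smallest adjusted p of the 36 genes in competent vs. non-competent oocytes, and Kars because it serves both compartments. In Tars, which held both elements, the matches did not overlap.
Iars2: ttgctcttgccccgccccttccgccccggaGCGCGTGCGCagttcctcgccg
Kars: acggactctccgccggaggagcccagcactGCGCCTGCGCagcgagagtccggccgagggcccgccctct

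Both lie on the minus strand, at chr1:185329372-185329423 for Iars2 and chr8:112011364-112011433 for Kars. A match is a description of the letters in this window, and occupancy was not measured.

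Expression is given as CPM, counts per 1000000 counts on the genes tested, with library sizes adjusted by TMM (a trimmed mean of log ratios between pools). Total counts ranged from 17671193 to 27418358 per pool. All 14 oocyte markers were present, with a summed level of 19051 to 26178 CPM. The 16 granulosa and cumulus cell markers summed to 691, 768 and 850 CPM in PND 13 replicates 1 and 3 and PND 16 small replicate 2, and to between 221 and 384 CPM in the other 9 pools, and none of the 16 was at 0 in every pool. Within that sum, Esr2 and Nr5a2 stood at 74.2 to 148 and 87.9 to 146 CPM. Inha, Inhbb and Gja1 ranged more widely, from 2.34 to 143, 1.02 to 155 and 1.37 to 128 CPM. The sum therefore shows less spread between pools than these 3 genes. Of 7 blood and immune markers, 6 were at 0 in every pool. The 4 endothelium markers summed to 85.2 to 107 CPM, and 0 of them were at 0 in every pool. Most of that sum was Pecam1 (52 to 64.6 CPM) and Tek (24.97 to 43.05 CPM). Kdr ranged from 1.23 to 9.22 CPM, and Cdh5 was at 0 in 8 pools and at most at 0.143 CPM. Genes were compared with edgeR's quasi-likelihood test, with p-values adjusted by the Benjamini-Hochberg method over all genes tested, and a gene is termed called where it met both criteria of the study: 1.5-fold or more, and an adjusted p no higher than 0.05. Log2 fold changes are given ± the standard error of the fit. A share of the pooled RNA cannot be told apart from an amount per oocyte, and the p-values measure the spread between pools. For competent vs. non-competent oocytes, this spread and the SDs of 6 pools also include the difference between the 2 cohorts on each side.

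Cytosolic enzymes were expressed at higher levels than mitochondrial ones. Per kilobase of exon, the median over the 12 pools was 20.2 CPM for the 20 cytosolic genes and 3.30 CPM for the 15 mitochondrial genes other than Lars2. Qars, for glutamine, led the cytosolic genes with 129.97 CPM per kb, followed by Iars (74.5), Rars (61.8), Farsb (50.5) and Gars (44.5), for isoleucine, arginine, phenylalanine and glycine. The lowest cytosolic genes were Hars, for histidine (5.79 CPM per kb), Vars, for valine (2.69), and Yars, for tyrosine (0.675). Among mitochondrial genes, Lars2, for leucine, stood at 372 CPM per kb and is described separately, since its reads were uneven between pools. Fars2 (19.9 CPM per kb) and Rars2 (12.5), for phenylalanine and arginine, came next, and Hars2, for histidine, was lowest at 0.327. Yars was therefore below all but 2 of the mitochondrial genes (Hars2 and Mars2), and Vars2, for mitochondrial valine, exceeded its cytosolic counterpart Vars.

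The summed level of the 20 cytosolic genes differed little between pools. It was 1820, 1947 and 1874 CPM at PND 13, 1944, 1835 and 1859 CPM in PND 16 small, 2007, 1973 and 1990 CPM in PND 16 large and 1929, 1951 and 1983 CPM at PND 40. The highest pool exceeded the lowest by 1.10-fold. The 15 mitochondrial genes without Lars2 summed to 194, 245 and 209 CPM at PND 13, 240.3, 178 and 161 CPM in PND 16 small, 170.1, 195 and 176 CPM in PND 16 large and 190.1, 204 and 191 CPM at PND 40. The ranges of the cohorts overlapped for the mitochondrial sum. In CPM and not per length, the cytosolic sum was 8.77 ± 0.734 times the mitochondrial sum at PND 13 (SD, n = 3), 9.98 ± 1.76 times in PND 16 small, 11.1 ± 0.872 times in PND 16 large and 10.02 ± 0.419 times at PND 40.

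The coefficient of variation over the 12 pools, which includes differences between cohorts, had a median of 10.2% for the cytosolic genes and 27.0% for the mitochondrial genes, against 24.1% for all genes tested. It was under 10% for 9 of the 20 cytosolic genes, 0 of the 16 mitochondrial genes and 10.6% of all genes tested. The counts of the mitochondrial genes were lower, and their part in this spread was not tested. Rars (5.44%), Qars (5.995%) and Gars (6.15%) varied least. Gars, which serves both compartments, stood at 102, 99.5 and 101 CPM at PND 13 and at 107, 109 and 96.3 CPM in PND 16 small. It stood at 118, 109.5 and 110 CPM in PND 16 large and at 114, 99.9 and 104 CPM at PND 40, and competent and non-competent pools overlapped.

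**Figure D1:**
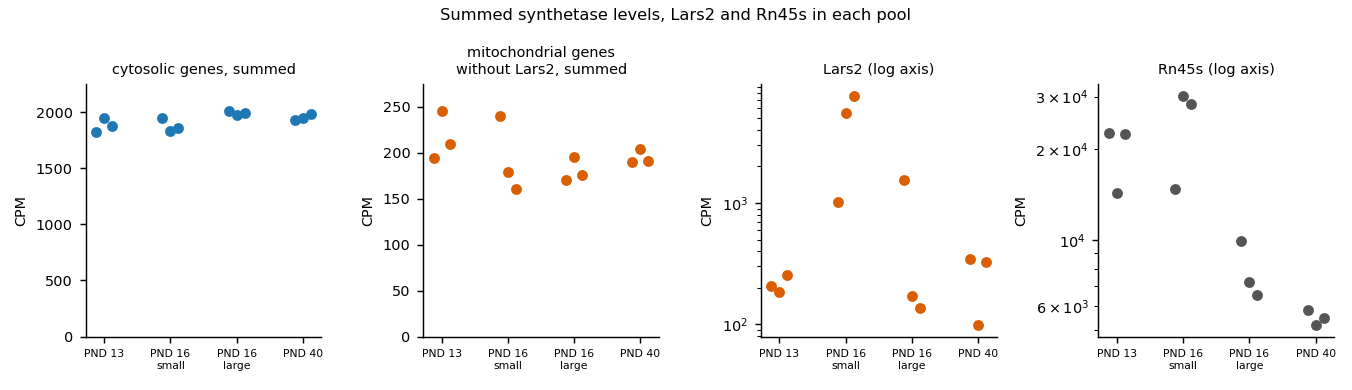
Level (CPM, vertical axes) of the 20 cytosolic genes summed, the 15 mitochondrial genes without Lars2 summed, Lars2, and Rn45s in each pool, by cohort (horizontal axes), with log axes for Lars2 and Rn45s; each point is 1 pool. The cytosolic sum stays between 1820 and 2007 CPM, while Lars2 ranges from 98.8 to 7607 CPM.

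The comparison of competent with non-competent oocytes asked which transcripts accompany the ability to reach metaphase II. In competent oocytes, 4 synthetase genes were called, all lower. Those were the mitochondrial enzymes for histidine (Hars2), isoleucine (Iars2) and asparagine (Nars2), and the cytosolic enzyme for tyrosine (Yars). Of all genes tested, 11.2% were called lower and 3.78% higher, so the 4 of 36 lower did not exceed the background. By adjusted p alone, 5 synthetase genes were higher and 6 lower, where 14.2% and 16.5% of all genes were higher and lower. The higher genes were Farsb, Nars, Kars and Sars of the cytosol and Fars2 of the mitochondria, and Ears2 and Vars2 joined the 4 called genes on the lower side. The median log2 fold change was 0.09 for cytosolic genes, -0.33 for mitochondrial genes and close to 0 (-0.00458) for all genes tested. The cytosolic median was 0.02 without PND 16 small replicate 3, 0.03 without PND 16 small replicate 2, and 0.04 without the 3 pools high in granulosa markers, where the mitochondrial median was -0.48. With 1 pool left out, the mitochondrial median ran from -0.42 (without PND 16 small replicate 3) to -0.27 (without PND 16 small replicate 1).

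**Figure D2:**
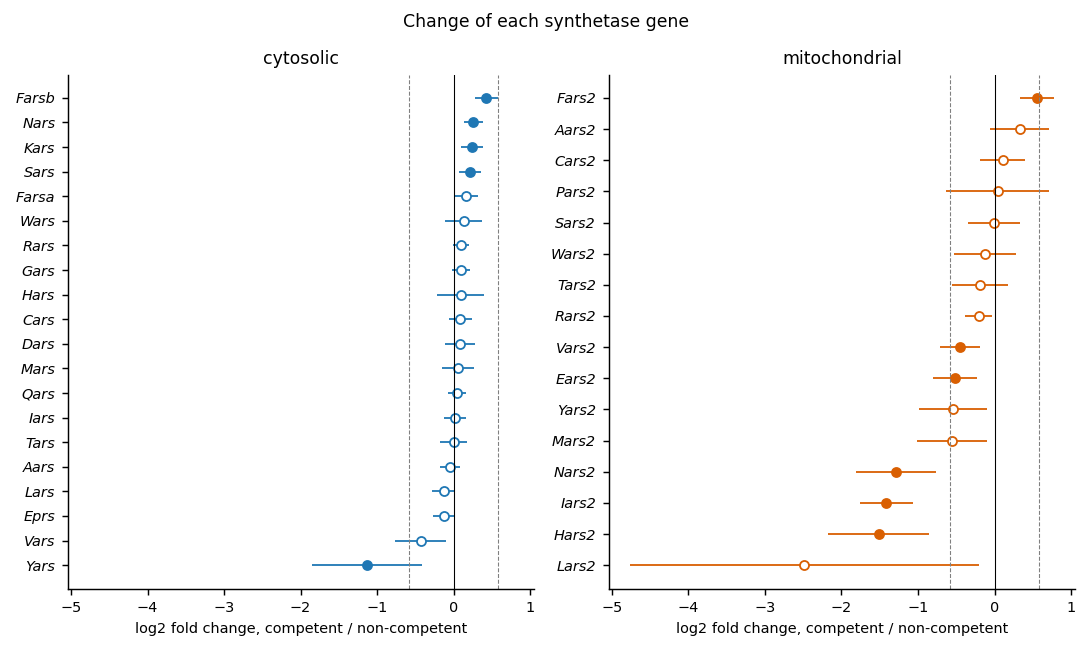
Log2 fold change of competent over non-competent oocytes (horizontal axis) for each cytosolic and mitochondrial synthetase gene (vertical axis); lines are approximate 95% intervals, filled points passed an adjusted p of 0.05, and dashed lines mark 1.5-fold. Cytosolic genes other than Yars lie between -0.43 and 0.43, whereas Iars2, Nars2, Hars2 and, with a wide interval, Lars2 lie below -1.

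Iars2, on chromosome 1 (185284726 to 185329396, GRCm38, minus strand), had the clearest change. It stood at 18.8, 20.7 and 22.5 CPM at PND 13 and at 25.1, 11.1 and 18.5 CPM in PND 16 small, but at 6.50, 8.48 and 8.44 CPM in PND 16 large and at 6.48, 7.88 and 5.99 CPM at PND 40. All 6 competent pools were below all 6 non-competent pools. For 7.81% of all genes tested, the groups were apart in this direction. Iars2 was 2.66-fold lower in competent oocytes (log2 fold change -1.41 ± 0.18, edgeR adjusted p = 8.13e-05). Without the 3 pools with the most granulosa marker counts, the change was -1.55 (edgeR adjusted p = 0.000224). Iars, its cytosolic counterpart, stood at 332 ± 38.1 CPM in competent and 328 ± 12.6 CPM in non-competent oocytes (SD, n = 6). Per kilobase of exon, the CPM of Iars was 69.4 ± 11.1 times that of Iars2 in competent and 27.3 ± 9.26 times in non-competent oocytes, and the 2 ranges did not overlap. In the GENCODE annotation, 22.0% of the 50-base windows of Iars2 transcripts are shared with transcripts of Rab3gap2 on the opposite strand. Whether counting used strand is not given in the sources used here. Rab3gap2 was not called (366 ± 13.9 vs. 338 ± 35.2 CPM, edgeR adjusted p = 0.206).

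Nars2, on chromosome 7 (96951505 to 97064758), stood at 3.30, 6.06 and 4.91 CPM at PND 13 and at 5.93, 4.65 and 3.44 CPM in PND 16 small. It stood at 2.05, 3.08 and 2.07 CPM in PND 16 large and at 1.2, 2.03 and 1.14 CPM at PND 40, again with no overlap between competent and non-competent pools. The level was 2.44-fold lower in competent oocytes (log2 fold change -1.29 ± 0.27, edgeR adjusted p = 0.00254). Nars, the cytosolic enzyme for asparagine, moved the other way. It ranged from 114.7 to 136 CPM in competent pools (median 128) and from 99.4 to 114.4 CPM in non-competent pools (median 104), a log2 fold change of 0.26 ± 0.06 (edgeR adjusted p = 0.00517) without overlap, a separation seen upward in 6.89% of all genes tested. Their ratio in CPM per kilobase, Nars to Nars2, was 106 ± 45.6 in competent and 33.6 ± 9.63 in non-competent oocytes (SD, n = 6), with values of 52.8 to 169.7 and 23.8 to 47.1. Of the other pairs compared this way (all but Lars), only Hars to Hars2 had ranges apart, at 25.2 to 44.7 and 7.37 to 18.8. The mean ratio was lower in competent oocytes for Aars, Cars, Vars and Yars to their mitochondrial counterparts. The share of such separations over all genes was not determined.

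Hars2, on chromosome 18 (36783008 to 36792562), was the least expressed of the 36 genes per kilobase, with 11 to 68 counts in a pool. It stood at 2.01, 1.13 and 2.78 CPM at PND 13, at 1.26, 1.56 and 0.949 CPM in PND 16 small, at 0.450, 0.71 and 0.557 CPM in PND 16 large and at 0.558, 0.518 and 0.588 CPM at PND 40. No competent pool reached the lowest non-competent pool. The level was 2.86-fold lower in competent oocytes (log2 fold change -1.51 ± 0.34, edgeR adjusted p = 0.00372). The 2 highest values fell in PND 13 replicates 1 and 3, which also had high granulosa marker sums, and without those and PND 16 small replicate 2 the change was -0.98 and no longer called (edgeR adjusted p = 0.1003). These pools are all non-competent, so that fit also had fewer pools on that side. Hars2 stayed called in all 12 fits that left out 1 pool and under the other alternatives, including the granulosa marker level as a covariate. Hars, the adjoining cytosolic gene on the opposite strand, stood at 11.9 ± 1.68 CPM in competent and 11.2 ± 2.42 CPM in non-competent oocytes, and 3.37% of the windows of Hars2 are shared with it.

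Fars2, for mitochondrial phenylalanine, was the only mitochondrial gene to pass the adjusted p on the higher side. It ranged from 47.7 to 72.2 CPM in competent pools (median 53.6) and from 31.2 to 42.5 CPM in non-competent pools (median 38.5), without overlap. The log2 fold change was 0.56 ± 0.11 (edgeR adjusted p = 0.00194), just under the 1.5-fold criterion.

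Ears2, for mitochondrial glutamic acid, ranged from 7.16 to 9.63 CPM in competent pools (median 7.86) and from 8.48 to 14.9 CPM in non-competent pools (median 12). Its log2 fold change was -0.52 ± 0.15 (edgeR adjusted p = 0.0156), with the groups overlapping, and it did not pass without the 3 pools with high granulosa marker sums (edgeR adjusted p = 0.0734). Vars2, for mitochondrial valine, ranged from 21.8 to 27.0 CPM in competent pools (median 24.5) and from 23.7 to 43.5 CPM in non-competent pools (median 31.9), a log2 fold change of -0.45 ± 0.13 (edgeR adjusted p = 0.0193). The other 10 mitochondrial genes did not pass the adjusted p. Of these, Yars2, Mars2 and Rars2 had log2 fold changes of -0.54 ± 0.23, -0.56 ± 0.23 and -0.21 ± 0.09, and Aars2 of 0.33 ± 0.20. Cars2, Pars2, Sars2, Tars2 and Wars2 lay between -0.20 and 0.11.

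**Figure D3:**
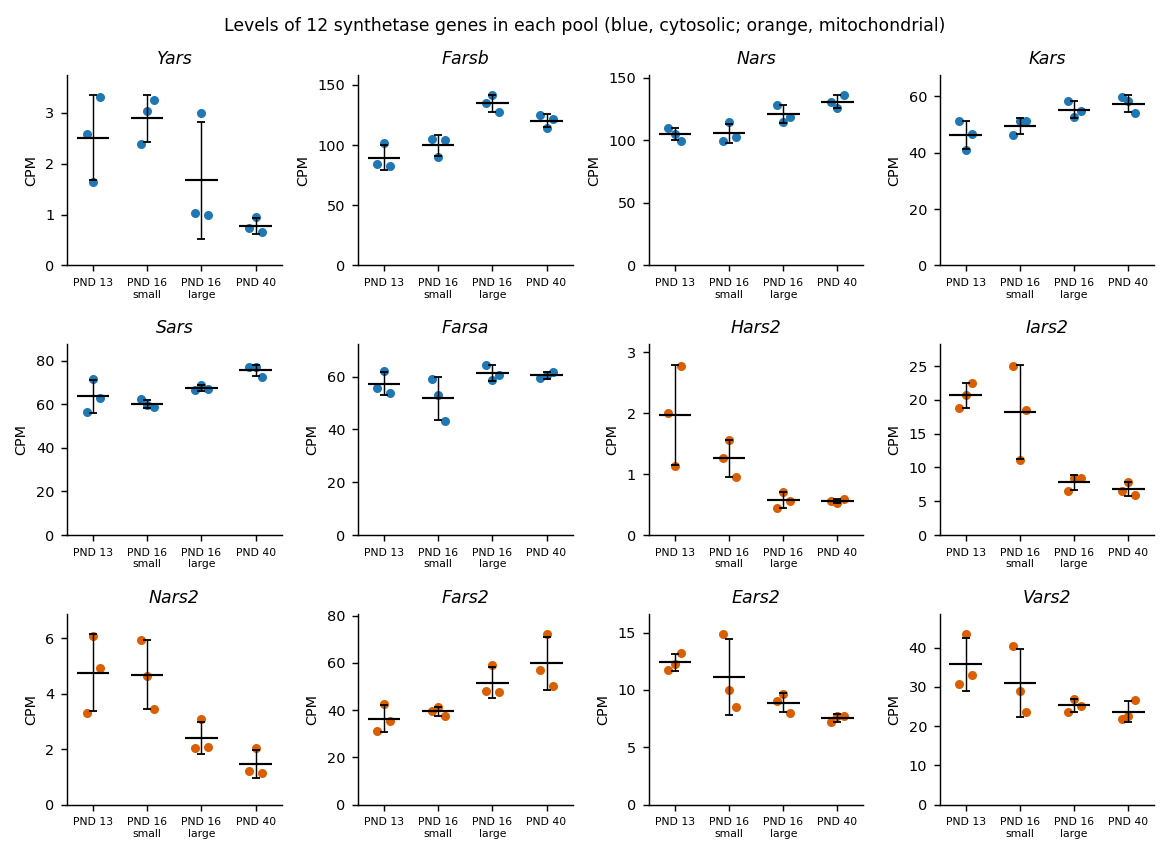
Level (CPM, vertical axes starting at 0) of 6 cytosolic (blue) and 6 mitochondrial (orange) synthetase genes in each pool by cohort; points are pools, bars the mean and SD of 3 pools. Iars2, Nars2 and Hars2 are lower in both competent cohorts without overlap, and in Yars 1 PND 16 large pool stands at 3.00 CPM beside 2 near 1.00 CPM.

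Farsb and Farsa encode the subunits of cytosolic phenylalanyl-tRNA synthetase. Farsb, on chromosome 1 (78417975 to 78488897), stood at 84.3, 101.6 and 82.9 CPM at PND 13, 104.9, 89.8 and 104.5 CPM in PND 16 small, 135, 141 and 127 CPM in PND 16 large and 125, 114 and 122 CPM at PND 40. Every competent pool exceeded every non-competent pool, with a log2 fold change of 0.43 ± 0.08 (edgeR adjusted p = 0.00102). Farsa ranged from 58.7 to 64.6 CPM in competent pools (median 60.6) against 43.2 to 62.2 CPM otherwise (median 54.8), and did not pass the test (log2 fold change 0.16 ± 0.08, edgeR adjusted p = 0.150). The ratio of Farsb to Farsa, in CPM per kilobase, ran from 1.26 to 1.36 at PND 13 and from 1.41 to 2.01 in PND 16 small. It ran from 1.73 to 2.003 in PND 16 large and from 1.57 to 1.75 at PND 40, so PND 13 lay below the other cohorts. All 3 genes for phenylalanine had positive estimates. Farsb shares 7.27% of its windows with Sgpp2 on the opposite strand, and Sgpp2, at 5.61 ± 0.938 vs. 2.42 ± 0.786 CPM, was called higher in competent oocytes (edgeR adjusted p = 0.00141).

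Kars, the lysine enzyme of both compartments, ranged from 52.7 to 59.9 CPM in competent pools (median 56.6) and from 41.0 to 51.2 CPM in non-competent pools (median 48.9), with no overlap. The log2 fold change was 0.24 ± 0.07 (edgeR adjusted p = 0.0259). Sars, for serine, ranged from 66.8 to 77.2 CPM (median 70.9) against 56.6 to 71.7 CPM (median 61.0), with overlap and a log2 fold change of 0.21 ± 0.07 (edgeR adjusted p = 0.0418). Kars lost the adjusted p in 5 and Sars in 11 of the 12 fits that left out 1 pool, with adjusted p up to 0.0607 and 0.256 over all alternatives. Farsb, Nars and Fars2 kept it in all 12.

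Yars, on chromosome 4 (129189760 to 129219607), had the largest coefficient of variation of the cytosolic genes (54.1%), followed by Vars (25.7%). Yars stood at 2.58, 1.64 and 3.32 CPM at PND 13 and at 2.38, 3.03 and 3.26 CPM in PND 16 small. In PND 16 large it stood at 1.02, 3.00 and 0.995 CPM, and at PND 40 at 0.729, 0.956 and 0.661 CPM, on 17 to 81 counts in a pool. The PND 40 pools were all below the non-competent pools, whereas PND 16 large replicate 2 was among them. That pool also had the highest sum of 9 theca and stroma markers, 46.8 CPM, the part of which in the Yars level was not tested. Yars was 2.19-fold lower in competent oocytes (log2 fold change -1.13 ± 0.37, edgeR adjusted p = 0.0305). The call was lost in 6 of the 12 fits that left out 1 pool (PND 13 replicate 3, PND 16 large replicates 1 and 3, and each PND 40 pool). It was also lost without the 3 pools high in granulosa markers (edgeR adjusted p = 0.183) and with the granulosa marker level as a covariate. Vars, for valine, stood at 9.50 ± 1.86 CPM in competent and 12.8 ± 2.85 CPM in non-competent oocytes, and did not pass (log2 fold change -0.43 ± 0.17, edgeR adjusted p = 0.0701).

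The enzymes of the multi-synthetase complex (Eprs, Iars, Lars, Mars, Qars, Rars, Kars and Dars) had log2 fold changes of -0.13 to 0.24 between competent and non-competent oocytes, with a median of 0.05. Of these 8, 0 were called and only Kars passed the adjusted p, where 15.0% of all genes were called and 30.7% passed the adjusted p. Among the complex's scaffold proteins, Aimp1 and Aimp2 did not pass (0.08 ± 0.14 and 0.12 ± 0.11), whereas Eef1e1 passed by adjusted p alone, with 50.3 ± 2.68 CPM in competent and 35.7 ± 3.30 CPM in non-competent oocytes (log2 fold change 0.49 ± 0.08, edgeR adjusted p = 0.000421). Of the 12 cytosolic genes commonly described as ATF4 targets, Nars and Sars were higher and Yars lower by adjusted p (3 of 12, against the same 30.7%), and the median log2 fold change was 0.04. Among the 5 genes with the ATF4 element in the promoter sequences shown, Aars, Gars, Iars and Tars had log2 fold changes of -0.05 ± 0.07, 0.09 ± 0.06, 0.02 ± 0.07 and -0.000841 ± 0.09, and Yars was lower.

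In the 6 pairwise comparisons of cohorts, which share pools with each other and with the comparison above, calls fell mostly on mitochondrial genes. Over all 7 comparisons, 3 of 20 cytosolic genes (Farsb, Vars and Yars) and 11 of 16 mitochondrial genes were called at least once, as were 30.3% of all genes tested. At no comparison did Aars, Cars, Dars, Farsa, Gars, Hars, Iars, Lars, Mars, Qars, Rars, Tars or Wars pass the adjusted p, nor did the mitochondrial Cars2, Pars2, Rars2, Sars2 or Wars2.

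PND 40 vs. PND 13 gave 1 gene higher and 7 lower, where 6.31% and 12.6% of all genes tested were called higher and lower. Fars2 was higher at PND 40 (59.8 ± 11.2 vs. 36.3 ± 5.72 CPM, log2 fold change 0.72 ± 0.15, edgeR adjusted p = 0.00249). Hars2 had the largest fall, 3.53-fold (log2 fold change -1.82 ± 0.47, edgeR adjusted p = 0.00963), followed by Nars2 (-1.70 ± 0.35), Yars (-1.68 ± 0.47) and Iars2 (-1.61 ± 0.25). The smaller falls were those of Vars (-0.73 ± 0.21), Ears2 (-0.72 ± 0.20) and Vars2 (-0.59 ± 0.18). The valine enzymes of both compartments were thus called lower in the main fit, but every fit that left out 1 of these pools lost Vars, Vars2 or both. Iars2 and Nars2 stayed called in each of the 6 fits that left out 1 of these pools. By adjusted p alone, Farsb (0.42 ± 0.09), Nars (0.32 ± 0.08), Kars (0.31 ± 0.10) and Sars (0.25 ± 0.09) were also higher, making 5 of 36 higher and 7 lower where 16.3% and 16.7% of all genes were. Farsb and Nars kept the adjusted p in all 6 fits that left out a pool, whereas Kars lost it in 4 and Sars in 5. Without PND 13 replicate 3, 4 synthetase genes were called, Hars2, Yars, Vars and Ears2 being lost. Without PND 40 replicate 1 (Yars, Ears2 and Vars2 lost) or replicate 2 (Fars2, Vars and Vars2 lost), 5 were called. These 3 fits called 1934, 2046 and 2116 of all genes, respectively, against 2637 in the main fit. The fits without PND 13 replicate 1 or 2 or PND 40 replicate 3 lost Vars, Vars2, and Vars with Yars, respectively.

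PND 40 vs. PND 16 small gave 2 genes higher and 4 lower, against 6.89% and 10.3% of all genes. Aars2, for mitochondrial alanine, stood at 14.6, 8.39 and 6.17 CPM in PND 16 small and at 18.2, 14.1 and 16.3 CPM at PND 40, with 1 PND 16 small pool within the PND 40 range. It was 1.66-fold higher at PND 40 (log2 fold change 0.73 ± 0.24, edgeR adjusted p = 0.0356). In PND 13 it stood at 13.7 to 14.8 CPM and in PND 16 large at 12.02 to 15.1 CPM, and its call was lost without either of the 2 low PND 16 small pools (replicates 2 and 3) or without PND 40 replicate 1 or 3. It was also lost with only the pools compared (edgeR adjusted p = 0.108) and with the granulosa marker level as a covariate (edgeR adjusted p = 0.0511). Under these 2 alternatives 0 synthetase genes were called higher. Of all genes, 753 and 1018 were called higher there, against 960 in the main fit. Fars2 was again higher (0.60 ± 0.15, edgeR adjusted p = 0.00806), though under 1.5-fold without PND 40 replicate 2 or PND 16 small replicate 3, with limma, with only the pools compared and with the granulosa marker covariate, and Iars2 (-1.42 ± 0.25), Nars2 (-1.68 ± 0.35) and Yars (-1.88 ± 0.47) were lower. These 3 were called in every fit that left out a pool and under every alternative run. Lars2, the fourth lower gene, is described below. By adjusted p alone, Sars (0.33 ± 0.09), Nars (0.31 ± 0.08) and Farsb (0.27 ± 0.09) were also higher, and Ears2 (-0.56 ± 0.20) and Eprs (-0.23 ± 0.08) lower, where 14.5% and 15.7% of all genes were higher and lower. Nars kept the adjusted p in all 6 fits that left out a pool, whereas Farsb and Eprs each lost it in 5, Ears2 in 4 and Sars in 2 (all 4 of them without PND 40 replicate 1 and without replicate 2).

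PND 16 large vs. PND 13 gave 1 gene higher and 6 lower, against 3.52% and 9.80% of all genes. Farsb was 1.502-fold higher (log2 fold change 0.59 ± 0.09, edgeR adjusted p = 0.000926), which is at the fold criterion, and 4 of 6 fits that left out a pool put it below that criterion with the adjusted p still passed, as did 5 of 11 alternatives (upper-quartile factors, total counts, no filter, a stricter filter and the granulosa marker covariate). Fars2 was higher by adjusted p alone (0.51 ± 0.15, edgeR adjusted p = 0.0233), as were 12.6% of all genes. All 6 lower genes were mitochondrial. Hars2 (-1.77 ± 0.47, edgeR adjusted p = 0.0147) and Iars2 (-1.40 ± 0.24) fell most, followed by Mars2, for methionine (-1.10 ± 0.27), Nars2 (-0.99 ± 0.34), Yars2, for tyrosine (-0.94 ± 0.28), and Tars2, for threonine (-0.71 ± 0.19). Mars2 stood at 8.60, 7.66 and 9.05 CPM at PND 13 and at 2.70, 4.46 and 4.66 CPM in PND 16 large, and Tars2 at 12.4, 14.1 and 12.4 CPM and at 7.40, 8.29 and 8.04 CPM, neither with overlap, a separation downward that held for 22.8% of all genes tested. At PND 40 both stood between these 2 cohorts (5.36 to 6.05 CPM for Mars2 and 11.1 to 11.7 CPM for Tars2), and neither was called in PND 40 vs. PND 13. Every PND 40 pool was still below every PND 13 pool for both, as held for 24.5% of all genes tested. Without PND 16 large replicate 1, only Iars2 of the 36 genes was called, and without PND 13 replicate 3 (Farsb, Hars2 and Nars2 lost) or PND 16 large replicate 3 (Hars2, Nars2 and Yars2 lost), 4 were called. These 3 fits called 1154, 1189 and 1454 of all genes, respectively, against 1858 in the main fit. Nars2 was also lost without PND 13 replicate 2, as was Yars2, and without PND 16 large replicate 2.

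PND 16 large vs. PND 16 small, cohorts of the same age, gave 1 call, Iars2, lower in PND 16 large (log2 fold change -1.22 ± 0.24, edgeR adjusted p = 0.00743), where 4.76% of all genes were called lower and 1.43% higher. Farsb passed by adjusted p alone (0.43 ± 0.09, edgeR adjusted p = 0.0104), as did 4.98% of all genes on the higher side. Without PND 16 large replicate 1, the adjusted p of Iars2 was 0.0506 by edgeR. Without PND 16 small replicate 1, Aars2 was called higher beside Iars2, as were 286 of all genes, against 199 in the main fit.

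PND 16 small vs. PND 13 gave 0 calls among the 36 genes by edgeR, with 0.373% of all genes called (0.179% higher and 0.194% lower). An unadjusted p under 0.05 was reached by 6 synthetase genes and 19.2% of all genes. DESeq2 called 1 synthetase gene, Lars2, and 361 of all genes, against 52 of all genes by edgeR. Without PND 16 small replicate 1, edgeR called 817 of all genes. In that fit 4 synthetase genes were called, with Lars2 higher and Aars2, Pars2 and Tars2 lower. PND 40 vs. PND 16 large, both competent, also gave 0 calls by edgeR, DESeq2 and limma, with 3.66% of all genes called (2.34% higher and 1.32% lower). In that comparison an unadjusted p under 0.05 was reached by 4 synthetase genes (Tars, Yars, Tars2 and Yars2) and by 22.4% of all genes.

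**Figure D4:**
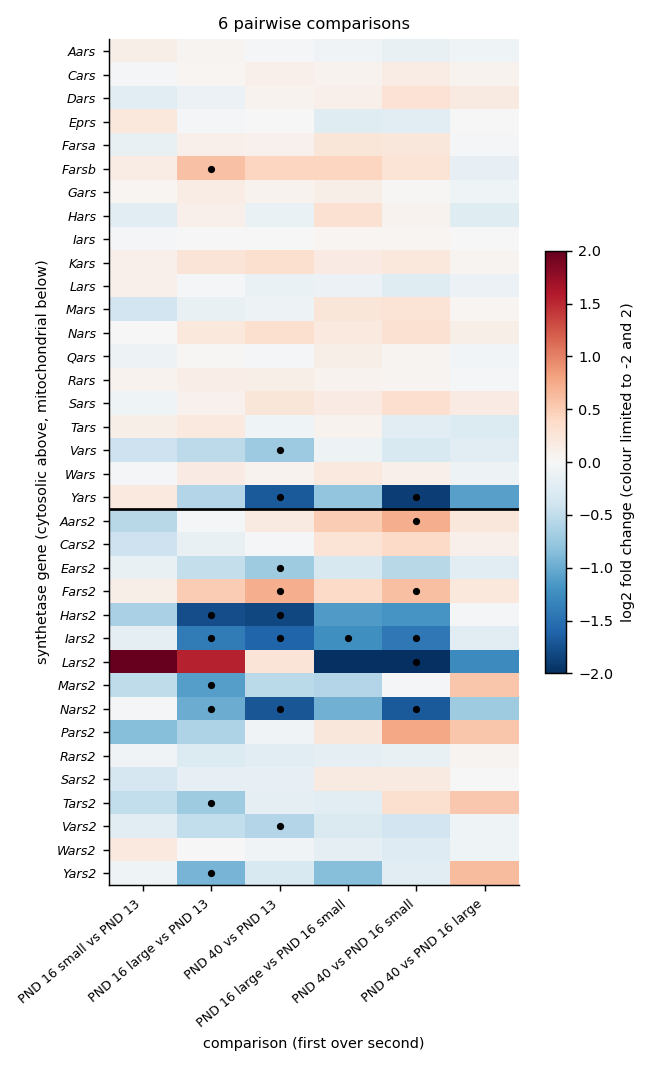
Log2 fold change (colour) of each synthetase gene (vertical axis, cytosolic above and mitochondrial below the line) in the 6 pairwise comparisons (horizontal axis, first cohort over second); dots mark called genes and colour is limited to -2 and 2. The cytosolic rows are pale apart from Yars, Vars and Farsb, and Iars2 has a dot in 4 of the 6 comparisons.

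Lars2, on chromosome 9 (123366927 to 123462666), differed from the other synthetase genes in its level and in its spread. It stood at 207, 184 and 254 CPM at PND 13, at 1024, 5480 and 7607 CPM in PND 16 small, at 1558, 170.0 and 138 CPM in PND 16 large and at 347, 98.8 and 327 CPM at PND 40. The highest pool exceeded the lowest by 77-fold, and Lars2 made up from 32.6% to 97.9% of all mitochondrial synthetase CPM in a pool. All PND 16 small pools were above the PND 13 and PND 40 pools, and PND 16 large replicate 1 lay between the PND 16 small values. In PND 40 vs. PND 16 small it was called lower (log2 fold change -4.19 ± 1.18, edgeR adjusted p = 0.0290), but that call was lost in 5 of the 6 fits that left out 1 pool (all but the fit without PND 16 small replicate 1), with adjusted p up to 0.0931. In competent vs. non-competent oocytes it did not pass (439.7 ± 557 vs. 2459 ± 3249.6 CPM, edgeR adjusted p = 0.132).

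The Rn45s entry, the 45S precursor of ribosomal RNA, was also uneven in these ribosomal RNA-depleted libraries, from 5195 to 30173 CPM. Its highest levels, 30173 and 28372 CPM, were in PND 16 small replicates 2 and 3, the same pools in which Lars2 was highest, and its lowest were in the PND 40 pools. Over the 12 pools, Lars2 and Rn45s had a Spearman's rho of 0.58 and a Pearson's r of 0.718, a description over points that share library and depth. In PND 13 replicates 1 and 3, Rn45s stood at 22632 and 22557 CPM while Lars2 was at 207 and 254 CPM. Of the 50-base windows of Lars2 transcripts, 0 were shared with the mitochondrial ribosomal RNAs mt-Rnr1 and mt-Rnr2 or with AY036118. Rn45s was not in the transcript set searched, so the same question was not tested for it. The part of ribosomal RNA depletion in the Lars2 counts was not tested.

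Lists of other genes that act in tRNA charging and translation were compared between competent and non-competent oocytes, where 3.78% of all genes were called higher and 11.2% lower, and 14.2% and 16.5% were higher and lower by adjusted p alone. Mitochondria make glutaminyl-tRNA by transamidation, through the products of Qrsl1, Gatb and Gatc. Of 10 genes listed as proofreading and transamidation partners, a list that also holds Tarsl2, Pstk and Sepsecs, 3 were called lower and 0 higher. Qrsl1 stood at 3.74 ± 0.904 vs. 6.66 ± 0.935 CPM (log2 fold change -0.83 ± 0.19, edgeR adjusted p = 0.00454), and Prorsd1 and Dtd2 were the others (-0.81 ± 0.27 and -0.60 ± 0.18), Dtd2 being an editing enzyme of mischarged tRNAs. Gatb, at 1.08 ± 0.266 vs. 1.94 ± 0.686 CPM, missed the threshold (edgeR adjusted p = 0.0508), and Gatc had a log2 fold change of 0.08 ± 0.35.

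Of 12 elongation and mitochondrial translation factors, 0 were called by edgeR, where 15.0% of all genes were, and 2 passed by adjusted p alone (Eef1d, 0.32 ± 0.06, and Gfm2, 0.31 ± 0.10), as did 30.7% of all genes. Of 20 tRNA maturation genes tested, Elac1, a tRNA 3′ processing enzyme (1.91 ± 0.861 vs. 5.25 ± 0.933 CPM, log2 fold change -1.46 ± 0.28, edgeR adjusted p = 0.00156), and Trmt61a, a tRNA methyltransferase subunit (-0.90 ± 0.26), were called lower and 0 higher. By adjusted p, 4 were higher and 3 lower: Pop1 (0.44 ± 0.08), Elac2, which processes tRNAs in the nucleus and mitochondria (0.40 ± 0.07), Trmt1 (0.28 ± 0.09) and Mto1 (0.27 ± 0.08) were higher, and Rpp30 (-0.31 ± 0.11) was lower beside the 2 called genes.

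Atf4 stood at 152 ± 14.2 CPM in competent and 141 ± 21.7 CPM in non-competent oocytes and did not pass (log2 fold change 0.11 ± 0.10, edgeR adjusted p = 0.412). Of 22 genes tested in a list of Atf4 and its other described targets, 1 was called higher (Cth, of cysteine synthesis, 0.91 ± 0.33) and 2 lower (Psph, of serine synthesis, -1.04 ± 0.27, and Chac1, which degrades glutathione, -1.24 ± 0.20). Asns, asparagine synthetase, stood at 2.55 ± 0.592 and 2.58 ± 0.646 CPM. Of 8 genes for eIF2alpha kinases, their regulators and phosphatase subunits, Eif2ak3, the endoplasmic reticulum kinase PERK (24.2 ± 3.53 vs. 46.6 ± 21.9 CPM, log2 fold change -0.94 ± 0.23), and Impact, an inhibitor of the kinase GCN2 (12.8 ± 4.17 vs. 23.4 ± 4.64 CPM, -0.87 ± 0.20), were called lower and 0 higher.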

How the data were processed

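The authors prepared directional libraries after ribosomal RNA depletion, sequenced them on an Illumina HiSeq, and used the Rosalind platform for the reads. The submitters' processing notes list the build mm10 and the tools FastQC, STAR, HTSeq, DESeq2, DESeq and HOMER, without versions or roles, and the strand setting of the counting is not given in the sources used here. The authors deposited raw counts of 24562 genes in the 12 pools, without normalization, and log2 values, which equal log2(count / size factor + 1) (checked on the values). The log2 values served only for an alternative test. Columns of unknown samples numbered 0, and 5 gene symbols were listed more than once, none of them a synthetase.

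Cohorts and replicate numbers were taken from the sample labels. Counts were analyzed in R 4.3.3 with edgeR 4.0.16 (filterByExpr with a minimum count of 10, TMM factors of 0.955 to 1.07, robust quasi-likelihood fits), which left 13943 genes. The 6 pairwise comparisons came from 1 model of the 4 cohorts, and competent vs. non-competent oocytes from a model of 6 vs. 6 pools. Standard errors were taken as the size of the log2 fold change over the root of its F statistic, so they and the intervals drawn are approximate. The fits were tested on simulated data. Figures were drawn in Python 3.11.15 with matplotlib 3.10.9. Levels per kilobase used exon lengths, and coordinates, of GENCODE M21 (GRCm38). Pools of a cohort differed by more than sampling noise (chi-square per gene of 9.17 to 50.6). Reads had no molecular identifiers, so counting error understates the error.

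The gene members and lists were chosen with earlier results of these data known. Genes with values by pool were up to 6 cytosolic and 6 mitochondrial genes of largest change among those past the adjusted p in competent vs. non-competent oocytes (5 and 6 passed), the called gene with the largest rise and fall in each pairwise comparison, and Farsa, Farsb, Gars and Kars, and of the other lists, the 3 called genes of largest change. Other genes with values, such as Mars2, Tars2 and Rn45s, were chosen after their values were seen. Same-numbered pools did not deviate together (correlations of -0.446 to 0.0739 in 18 pairs, 0 over 0.1), and the study describes independent pools. Alternatives were DESeq2 1.42.0, limma 3.58.1 on the log2 values, other scalings and filters, no fold criterion, only the pools compared (or a contrast of cohort means), a replicate block and leaving out each pool. The granulosa marker covariate and the fit without 3 pools were chosen after seeing the data.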

Additional observations from a re-analysis of the deposited data

Results flagged for a closer look

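Of 34 groups of competent or non-competent pools tested for a pool far from the others by Dixon's criterion, 2 had one, and chance gives about 1 in 20. Yars stood at 3.00 CPM in PND 16 large replicate 2, while the other 5 competent pools were at 0.661 to 1.02 CPM, and the gap was 0.845 of the range. Without that pool, the log2 fold change of Yars in competent vs. non-competent oocytes was -1.63 (edgeR adjusted p = 0.00117). That pool also had the highest theca and stroma marker sum (46.8 CPM, against 6.13 to 34.9 CPM in the other pools). Yars stood at 3.26 CPM in PND 16 small replicate 3, with a sum of 34.9 CPM, and at 3.32 CPM in PND 13 replicate 3, with 10.8 CPM. The part of these markers in the Yars level was not tested. Lars2 stood at 1558 CPM in PND 16 large replicate 1, while the other 5 competent pools were at 98.8 to 347 CPM, and the gap was 0.83 of the range. Without that pool, Lars2 had a log2 fold change of -4.93 in PND 16 large vs. PND 16 small and passed the criteria (edgeR adjusted p = 0.0478).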

How the results depend on the processing

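No synthetase gene's change that passed the adjusted p in a comparison reversed its direction there under an alternative run, and the other genes were not checked for this. Here and in the rest of this paragraph, numbers in parentheses are the genes called among all genes tested. In competent vs. non-competent oocytes, 4 synthetase genes were called (2087), and 11 without the 1.5-fold criterion (4283). The number was 2, Iars2 and Nars2, without the 3 pools high in granulosa markers (1597), and 3 to 5 when each pool was left out (1703 to 2231). PND 40 vs. PND 13 gave 8 calls (2637) and 4 to 7 with a pool left out (1934 to 2915). PND 40 vs. PND 16 small gave 6 (2395), 11 without the 1.5-fold criterion (4207), and 4 to 7 with a pool left out (1850 to 2558). PND 16 large vs. PND 13 gave 7 (1858), and 1 to 7 with a pool left out (1154 to 1934). PND 16 large vs. PND 16 small gave 1 call (863), but 4 with DESeq2 (1173), which were Iars2, Lars2, Nars2 and Yars2. It gave 2 with limma (900), 2 without the fold criterion (1715), 2 with the granulosa covariate (1115), and up to 2 with a pool left out (333 to 1144). PND 16 small vs. PND 13 gave 0 (52), 1 with DESeq2 (361), and 0 to 4 with a pool left out (4 to 817). PND 40 vs. PND 16 large gave 0 in the main fit (510) and under each alternative (246 to 1081). With the replicate number as a block, PND 40 vs. PND 13 gave 7 calls (2419), as Vars2 was lost. The synthetase counts of the other comparisons were the same as without the block. The cause of these changes was not tested, apart from the fewer pools or criteria that define them.

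Scaling by total counts moved the median of all genes to -0.13 in PND 16 large vs. PND 13, where the cytosolic median went from 0.07 to -0.03 and the mitochondrial from -0.49 to -0.59. In PND 40 vs. PND 13 the cytosolic median went from 0.03 to -0.04, and in PND 16 small vs. PND 13 the median of all genes moved to -0.12. Depth limited Hars2 and Yars most, with as few as 11 and 17 counts in a pool.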
